A study of Homo sapiens with 3 samples.

Results

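The genes encoding subunits of the nuclear RNA polymerases were followed in 3 RNA sequencing libraries of human cells labelled KG1a, an acute myeloid leukaemia cell line. Members were all protein-coding genes of GENCODE release 29 whose symbol starts with POLR1, POLR2 or POLR3, together with TWISTNB, CD3EAP, ZNRD1 and CRCP, subunit genes with other names. This gave 35 of the 58735 genes in the files: 6 of polymerase I, 11 of polymerase II, 11 of polymerase III, 2 shared by I and III, and 5 shared by all of them. The control library came from cells given a lentivirus with a control hairpin (shCtrl, genotype given as wild type). The libraries called knockdown 1 and knockdown 2 came from cells infected with shTRAF7 virus (genotype given as TRAF7 knockdown), which targets the ubiquitin ligase gene TRAF7. The batch given is the same for each of the 3. The titles of the knockdown libraries are shTRAF7 followed by 1 and by 2. It is not stated whether these numbers stand for different hairpins or the same one, or whether the cultures were separate. The p-values therefore measure only the spread between these libraries, which may be technical.

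RNA polymerase I transcribes the precursor of the large ribosomal RNAs, RNA polymerase II transcribes messenger RNAs, and RNA polymerase III transcribes transfer RNAs and other short RNAs. Each enzyme is built around a pair of large catalytic subunits. A set of small subunits is common to all of them, some further subunits are common to I and III, and the rest belong to 1 enzyme only. Ribosome production and growth draw heavily on I and III.

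Levels are FPKM as deposited, reads scaled by summed exon length and by a divisor for each library. The divisors equal median-of-ratios factors, 1.0446 for the control, 0.9629 for knockdown 1 and 1.0061 for knockdown 2. They do not follow the assigned reads, as the control had the largest divisor and the fewest reads. Reads assigned to genes numbered between 16014485 and 16254461 per library. TRAF7 itself fell from 46.5 FPKM in control cells to 15.6 and 18.3 after knockdown (limma-voom adjusted p = 2.88e-05; limma adjusted p = 0.274). CD34, the surface antigen KG1a is best known for, had 0, 1 and 10 reads in control, knockdown 1 and knockdown 2 (a count of 0 allows up to 3), so this defining marker is absent or nearly so, while the leukocyte gene PTPRC was at 9.54, 5.60 and 6.53 FPKM. The label KG1a is therefore kept as a label only. Summed over 7 erythroid marker genes, levels were 97.5, 231.2 and 203.1 FPKM, higher in both knockdown libraries, with none of the 7 at 0 reads. Summed over 6 stromal and epithelial markers they were 131.5, 162.2 and 144.7, over 5 lymphoid markers 7.33, 5.59 and 6.81 with MS4A1 at 0, and over 4 progenitor and leukocyte markers 91.0, 80.1 and 77.3. Reads on sense intronic genes came to 553.2 RPM in the control and 448.5 and 475.5 RPM in the knockdown libraries. The part of any of these in the results below was not tested.

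Most polymerase subunit genes were higher in both knockdown libraries, the shared subunits most of all, and the difference was larger in knockdown 1. Of the 35 members, 33 averaged 1 FPKM or more and are called measured. Of these, 24 (72.7%) were above the control in both knockdown libraries, against 42.5% of all 12640 genes tested, and 3 (9.09%) were below it in both, against 30.8%. With values rescaled to all assigned reads, the split was 18 higher and 8 lower. Shares of all genes tested were not computed under that scaling, so this split has no background beside it. The median log2 fold change of all genes tested was −0.048 there and 0.040 as deposited. The median member stood at 1.34 times the control in knockdown 1 and 1.09 times in knockdown 2, where the medians of all genes tested were 1.05 and 1.03. Knockdown 1 was above knockdown 2 for 27 of the 33 members (81.8%), against 54.7% of all genes tested. Protein-coding genes as a whole were higher in both libraries in 46.5% of cases. Measured members had a median control level of 12.6 FPKM, against 6.19 for all genes tested. Genes averaging at least 5 FPKM had a median log2 fold change of 0.105, between that of all genes tested (0.040) and that of the members (0.247). No shares were computed for genes matched to the members by level.

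**Figure D1:**
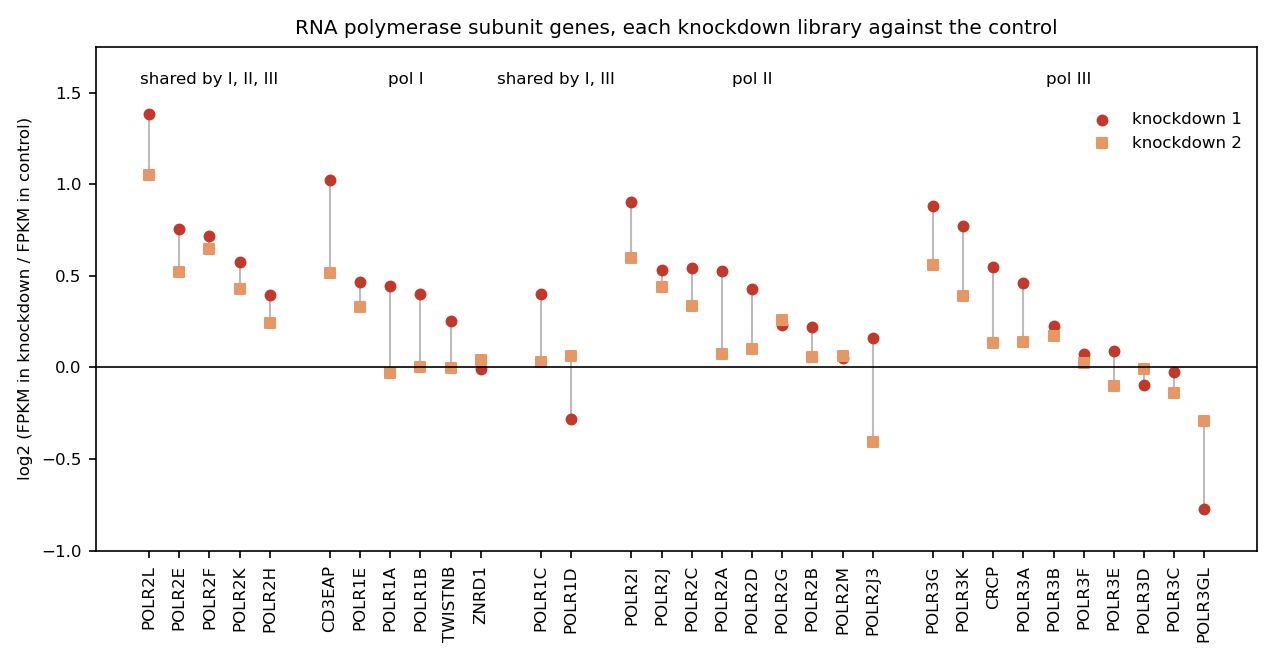
Measured subunit genes, 32 of 33, are shown with the log2 ratio of its FPKM to the control in knockdown 1 (circles) and knockdown 2 (squares), grouped by enzyme and ordered within a group by fitted fold change. All 5 subunits shared by the enzymes lie above 0 in both libraries, POLR2L highest. POLR3GL lies lowest in knockdown 1 and POLR2J3 (ENSG00000168255) in knockdown 2.

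By limma with an intensity trend on log2(FPKM + 1), adjusted by Benjamini-Hochberg over all 12640 genes, 0 of the 33 measured members passed an adjusted p of 0.05, as did 0% of all genes tested. At an unadjusted p under 0.05 there were 8 members, all higher, where 5.46% of all genes tested were higher and 3.73% lower at that p. In limma-voom, run on whole reads computed back from FPKM, 1 member, POLR2L, passed over all genes, where 0.18% of genes tested were called higher and 0.659% lower. The fit has 1 residual degree of freedom, and the lone control library is assumed to vary like the knockdown libraries. Fold changes called fitted are on the log2(FPKM + 1) scale, which understates those of low genes.

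All 5 subunits shared by the 3 enzymes were higher in both knockdown libraries, with median ratios to the control of 1.65 and 1.43. POLR2L, a small zinc-binding subunit at the assembly platform of the enzymes, was at 55.6 FPKM in the control, with a 95% Poisson interval of 52.3 to 59.0 from 1072 reads. Knockdown 1 had 145.0 FPKM (139.5 to 150.8, from 2578 reads), and knockdown 2 had 115.0 (110.2 to 120.0, from 2136 reads). Both knockdown values lie above the control, by 2.61 and 2.07 times, and apart from each other. Its fitted log2 fold change was 1.20 ± 0.19 (SE). The adjusted p was 0.346 by limma and 0.00108 by limma-voom. It was the only member at least 2-fold higher in both libraries, a size reached by 1.06% of all genes tested. Such intervals cover counting error only, and for POLR2L they are narrower than the gap between the knockdown libraries.

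POLR2L lies on chromosome 11 (positions 837356 to 842545, minus strand, GRCh38), and 22.5% of its exon bases also lie in exons of CD151 on the opposite strand. The sources used here do not say whether counting used strand. CD151, a tetraspanin gene, had 36.2 FPKM in the control, then 48.4 and 40.2 with knockdown. That is 1.34 and 1.11 times the control, less than the ratios of POLR2L.

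POLR2E, a shared subunit at the downstream jaw of the enzymes (chromosome 19, 1086579 to 1095380, minus strand), was at 47.3 FPKM without knockdown and at 79.8 and 67.9 with it. POLR2F, a shared subunit that contacts the base of the clamp (chromosome 22, 37952607 to 38041915, plus strand), was at 7.38, 12.1 and 11.6 FPKM in the same order. For POLR2F the knockdown libraries had overlapping counting intervals (11.5 to 12.8 and 10.9 to 12.2) and both lay above that of the control (6.90 to 7.89). POLR2E had a fitted log2 fold change of 0.63 ± 0.18 (SE) and POLR2F one of 0.62 ± 0.18, each with limma's adjusted p = 0.450, and limma-voom's adjusted p was 0.115 for each.

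POLR2K, another small zinc-binding subunit, was at 21.9, 32.6 and 29.5 FPKM, and POLR2H at 14.9, 19.5 and 17.6. These are the shared subunits with the smallest differences, with fitted log2 fold changes of 0.48 ± 0.18 (SE; limma adjusted p = 0.524) and 0.30 ± 0.18 (0.662). The ratios of POLR2H to the control were 1.31 (95% interval from the reads 1.19 to 1.44) and 1.18 (1.07 to 1.30). The 5 shared subunits therefore spanned 1.31 to 2.61 times the control in knockdown 1 and 1.18 to 2.07 in knockdown 2, and their order by ratio was POLR2L, POLR2E, POLR2F, POLR2K, POLR2H in the first and POLR2L, POLR2F, POLR2E, POLR2K, POLR2H in the second.

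**Figure D2:**
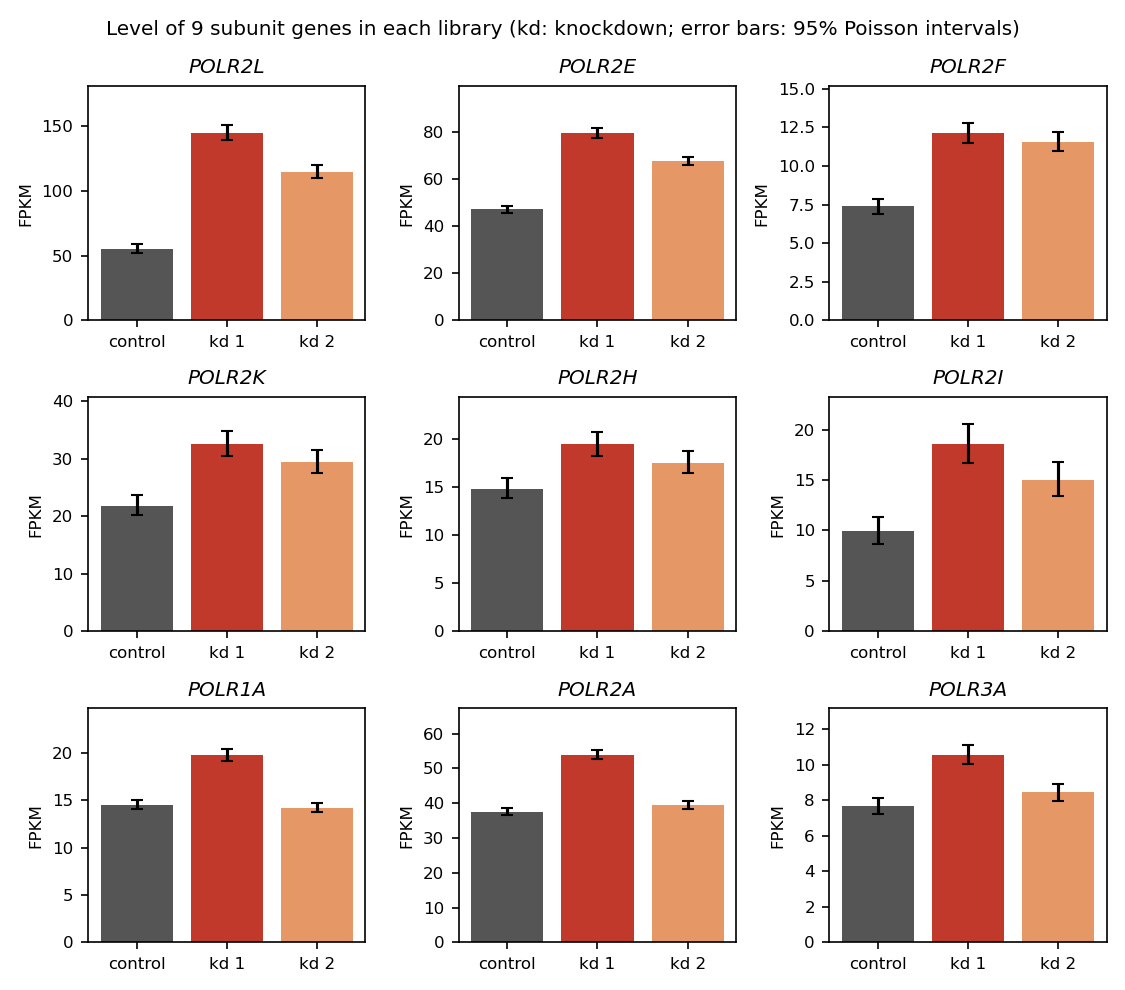
FPKM of 9 subunit genes in the control and the knockdown libraries (kd), with 95% Poisson intervals of the recovered reads as error bars. The 5 shared subunits and POLR2I are above the control in both knockdown libraries, whereas POLR1A, POLR2A and POLR3A are clearly higher in knockdown 1 and near the control in knockdown 2.

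The bases just before the start sites of the shared subunit genes with the largest ratios were read from RefSeq promoter windows (GRCh38.p14, 250 bases before and 50 after the start). Bases in exons of the gene in GENCODE release 29 are left out. They are shown because these members were all higher, and capitals mark the motifs found. POLR2L holds CCGGAA, the core of sites for ETS-family factors, and POLR2F holds the palindromic site of NRF1, a factor of many housekeeping genes. The POLR2E stretch holds neither. The stretches are chr11:842546-842695 (minus strand), chr22:37953513-37953662 (plus strand) and chr19:1095381-1095530 (minus strand).
POLR2L: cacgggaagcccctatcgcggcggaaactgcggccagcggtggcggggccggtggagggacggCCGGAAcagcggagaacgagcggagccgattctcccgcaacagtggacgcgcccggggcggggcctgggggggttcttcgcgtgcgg
POLR2F: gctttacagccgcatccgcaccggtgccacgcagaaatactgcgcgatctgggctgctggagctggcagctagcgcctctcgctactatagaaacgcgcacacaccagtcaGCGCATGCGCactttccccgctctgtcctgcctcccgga
POLR2E: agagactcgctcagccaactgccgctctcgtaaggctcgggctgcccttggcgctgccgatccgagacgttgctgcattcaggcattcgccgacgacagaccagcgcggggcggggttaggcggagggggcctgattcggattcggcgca

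RefSeq windows were matched for 24 member symbols, with 30 windows in all, and 4 motifs were searched on both strands, each counted on its own. CCGGAA was in 14 of the 30 windows (46.7%), against 17.2% of all 35116 windows and 21.2% of those of protein-coding genes. Its 12 genes were POLR1B, POLR1C, POLR2C, POLR2D, POLR2F, POLR2H, POLR2J2, POLR2L, POLR2M, POLR3A, POLR3C and POLR3GL, which include members higher in both libraries and members that were not. The NRF1 motif, the capitals of the POLR2F line, was in 4 windows (13.3%), of POLR2F, POLR2H and POLR3B, against 1.24% of all windows. The windows of POLR2F (37953413 to 37953712 and 37953449 to 37953748) overlap, so its NRF1 site is counted in both. Both also count for CCGGAA. The E-box CACGTG was in 4 windows (13.3%), of CD3EAP, POLR3A, POLR3C and POLR3E, against 7.26%, and TATAAA in 1 (3.33%), of POLR2M, against 11.5%. A match describes these letters only. Windows of CRCP, POLR1E, POLR2G, POLR2I, POLR2J, POLR2J3, POLR2K, POLR3D and POLR3G, among others, were not used here.

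The genes of the largest catalytic subunits were higher in knockdown 1 but close to the control in knockdown 2. POLR1A, the largest subunit of polymerase I, had 14.5 FPKM in the control, then 19.8 and 14.2 in the knockdown libraries. POLR2A, the largest subunit of polymerase II, which carries the heptad-repeat tail, was at 37.5, 53.9 and 39.4 FPKM. POLR3A, the largest subunit of polymerase III, was at 7.66, 10.6 and 8.44 FPKM. Ratios to the control in knockdown 1 were 1.36, 1.44 and 1.38 for POLR1A, POLR2A and POLR3A, and in knockdown 2 they were 0.980 (95% interval from the reads 0.933 to 1.03), 1.05 (1.01 to 1.09) and 1.10 (1.01 to 1.20). The fitted log2 fold changes were 0.20 ± 0.24 (SE), 0.29 ± 0.23 and 0.27 ± 0.20, with limma adjusted p of 0.827, 0.721 and 0.713. The difference between the knockdown libraries was not tested, as each is a single library.

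The genes of the second-largest subunits, which form the other wall of the active site, had smaller ratios than the largest subunits in knockdown 1, but not throughout in knockdown 2. POLR1B was at 10.7, 14.1 and 10.7 FPKM, the same pattern as POLR1A. POLR2B was at 29.6, 34.4 and 30.8, and POLR3B at 5.80, 6.80 and 6.53. Ratios to the control in knockdown 1 were 1.32 for POLR1B and 1.16 and 1.17 for POLR2B and POLR3B. In knockdown 2 they were 1.00, 1.04 and 1.13 for POLR1B, POLR2B and POLR3B, so that POLR1B and POLR3B were slightly above POLR1A and POLR3A there.

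Polymerase I subunit genes differed from the control mostly in knockdown 1. Of 6 measured, 3 (50%) were higher in both libraries, near the 42.5% of all genes tested. None was lower in both, against 30.8%. The count sets no margin: POLR1B, at 1.002 times the control in knockdown 2 (95% interval from the reads 0.921 to 1.09), is in it. TWISTNB, at 0.9995 times, is not. Median ratios were 1.34 and 1.02. CD3EAP, which pairs with POLR1E in a dimer related to general factors of polymerase II, was at 2.02, 4.11 and 2.89 FPKM on 125, 234 and 172 reads. It lay above the control in both libraries, by 2.03 (95% interval from the reads 1.63 to 2.54) and 1.43 times (1.13 to 1.81), and 45.1% of its exon bases lie in exons of ERCC1 and PPP1R13L on the opposite strand. POLR1E was at 34.2, 47.3 and 43.0 FPKM. TWISTNB, a stalk subunit, was at 11.9, 14.2 and 11.9, and ZNRD1, the small subunit that takes part in RNA cleavage, at 8.61, 8.57 and 8.86, level across all 3 libraries. The subunits that I shares with III split, with POLR1C at 10.1, 13.4 and 10.3 FPKM and its partner POLR1D at 9.43, 7.75 and 9.83.

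Among polymerase II subunit genes, 8 of 9 measured (88.9%) were above the control in both libraries, against 42.5% of all genes tested. In both libraries 0 were below it, against 30.8%. The count sets no margin. It includes POLR2M, at 1.04 and 1.05 times the control, and POLR2B, at 1.04 in knockdown 2, each with 95% intervals from the reads that span 1 there. Median ratios were 1.34 and 1.07. POLR2I, the subunit that supports transcript cleavage and start-site choice, was at 9.94, 18.6 and 15.0 FPKM in the 3 libraries, on 213, 367 and 310 reads. It was 1.87 (95% interval from the reads 1.57 to 2.22) and 1.51 times (1.26 to 1.81) the control, with a fitted log2 fold change of 0.70 ± 0.20 (SE; limma adjusted p = 0.458, limma-voom adjusted p = 0.244). With POLR2L and POLR2F it is 1 of 3 members at least 1.5-fold higher in both libraries, a size reached by 2.67% of all genes tested, and 0 members were at least 1.5-fold lower in both, against 3.69%. The count of 3 was 1 when values were scaled to all assigned reads, and 7 without knockdown 2. POLR2I was just inside that size and POLR3G, at 1.48 times in knockdown 2, just outside. POLR2I lies on chromosome 19 (36113710 to 36115346, minus strand), and 79.6% of its exon bases lie in exons of genes on the opposite strand, TBCB, OVOL3 and AD001527.2. Reads in those bases cannot be told apart from theirs if counting ignored strand. Whether such reads were counted or left out is not given.

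The assembly partners POLR2C and POLR2J, which pair as the dimer that starts assembly of the enzyme, were both higher. POLR2C was at 30.2, 43.9 and 38.1 FPKM and POLR2J at 30.7, 44.4 and 41.6. The stalk subunits POLR2D and POLR2G, which bind as a dimer that can leave the enzyme, were at 13.7, 18.4 and 14.7 and at 57.9, 67.9 and 69.2 FPKM. POLR2G was the most abundant member in the control and the only one of these 4 with a higher level in knockdown 2 than in knockdown 1. POLR2M, which is not a core subunit but binds polymerase II and hinders initiation, was at 2.505, 2.600 and 2.619 FPKM, level across the libraries.

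Near-identical copies of POLR2J were barely detected. Of their 50-base stretches, 97.6% in POLR2J2 and 80.0% and 45.1% in the 2 genes named POLR2J3 (ENSG00000168255 and ENSG00000285437) also occur in transcripts of other genes, and 36.8% in POLR2J itself. POLR2J2 was at 1.26, 0.653 and 0.893 FPKM on 44, 21 and 30 reads. POLR2J3 (ENSG00000168255) was at 1.15, 1.29 and 0.868 FPKM, and POLR2J3 (ENSG00000285437) at 0.601, 0.589 and 0.299. POLR2J2 and ENSG00000285437 are the members below 1 FPKM on average, and the split of reads within this family is uncertain.

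Of the polymerase III subunit genes, 7 of 11 measured (63.6%) were higher in both libraries, against 42.5% of all genes tested. Lower in both were 3 (27.3%), against 30.8%. Median ratios were 1.17 and 1.09. The count sets no margin. The lower genes include POLR3C, at 0.982 and 0.909 times the control, and POLR3D, at 0.937 and 0.993. Their intervals from the reads span 1 in both libraries, as do those of POLR3F among the higher genes (1.05 and 1.02). Of the 3, POLR3GL alone had intervals below 1 in both. The clearest contrast lay within a pair of paralogs, POLR3G and POLR3GL, alternative subunits of which each enzyme holds 1. POLR3G is known for high expression in pluripotent and transformed cells, and POLR3GL is the form of most differentiated tissues. POLR3G (chromosome 5, 90471748 to 90514553, plus strand) had 7.78 FPKM in the control (7.13 to 8.47), and 14.3 (13.4 to 15.3) and 11.5 (10.7 to 12.3) in the knockdown libraries. POLR3GL (chromosome 1, 145964702 to 145978848, plus strand) had 14.7 (13.3 to 16.1), then 8.57 (7.52 to 9.73) and 11.96 (10.7 to 13.3). POLR3G was thus higher and POLR3GL lower in both knockdown libraries.

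The level of POLR3G over that of POLR3GL was 0.531 in the control (95% interval from the reads 0.467 to 0.604). It was 1.67 (1.45 to 1.94) in the first knockdown library and 0.960 (0.845 to 1.09) in the other. The intervals of the 3 libraries do not overlap, and the knockdown libraries differ from each other too. POLR3G made up 34.7%, 62.6% and 49.0% of the summed level of the pair, the control first. The summed level itself was 22.4, 22.9 and 23.4 FPKM, which is nearly constant. Fitted log2 fold changes were 0.66 ± 0.20 (SE; limma adjusted p = 0.478, limma-voom adjusted p = 0.130) for POLR3G and −0.49 ± 0.24 (limma adjusted p = 0.584, limma-voom adjusted p = 0.363) for POLR3GL, so neither passed over all genes. Exons of AC243547.3 on the same strand cover 21.2% of the exon bases of POLR3GL.

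**Figure D3:**
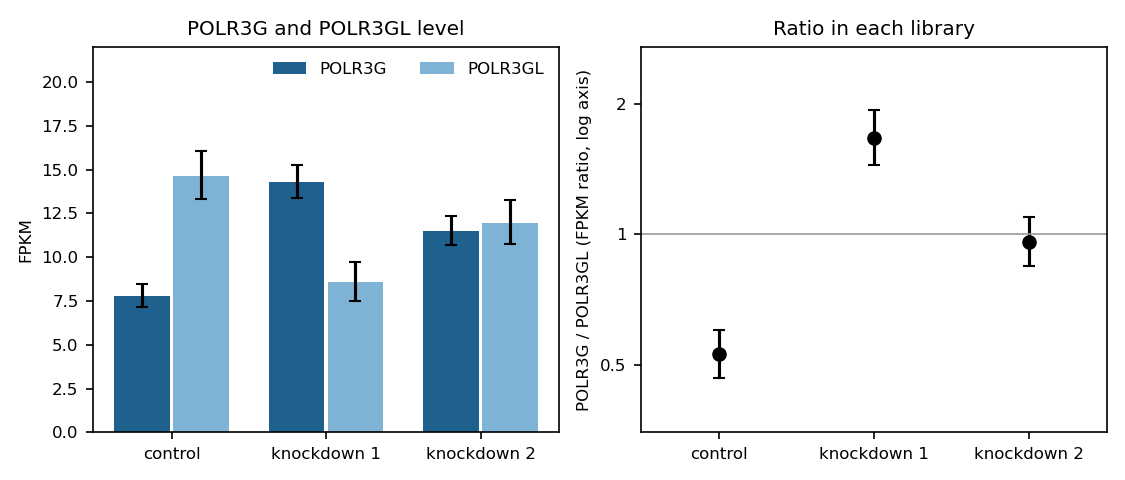
Left, FPKM of POLR3G and POLR3GL in each library with 95% Poisson intervals. Right, the ratio of their levels with 95% intervals from the reads, on a log axis, which goes from 0.531 in the control to 1.67 and 0.960 in the knockdown libraries.

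POLR3K, the subunit that supports cleavage and termination by polymerase III, was at 19.4, 33.1 and 25.4 FPKM, higher in both libraries by 1.71 and 1.31 times. It lies on chromosome 16 (46407 to 53628, minus strand), and 8.10% of its exon bases overlap SNRNP25 on the opposite strand. CRCP, a stalk subunit, was at 10.99, 16.1 and 12.1 FPKM, higher mainly in knockdown 1. POLR3C and POLR3F, partners of POLR3G and POLR3GL in the initiation subcomplex, were at 15.7, 15.4 and 14.3 and at 4.83, 5.09 and 4.92, close to the control. POLR3D and POLR3E, which form the other subcomplex particular to polymerase III, were at 12.6, 11.8 and 12.5 and at 16.00, 17.02 and 14.9 FPKM, also close to the control.

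Short subunits had larger fold changes than long ones, a pattern that overlaps with that of the shared subunits. Over 32 measured members, leaving out POLR2A, whose full-length coding sequence this release does not annotate, the 16 with a longest coding length of up to 746 bases had a median fitted log2 fold change of 0.39, and the 16 longer ones 0.15. Among all protein-coding genes tested the same division gave 0.15 and 0.04. Spearman's rho of fold change with coding length was −0.40 across the 32 members and −0.21 across 9897 protein-coding genes. These are descriptions across genes measured in the same 3 libraries, and genes are not independent replicates. Of the short members, ZNRD1, POLR1D and POLR3GL were level or lower. The short members include every subunit shared by all enzymes, with coding lengths from 201 to 630 bases. POLR2L, with the largest fitted log2 fold change (1.20), is 1 of these. Whether length matters apart from the shared subunits was not tested.

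**Figure D4:**
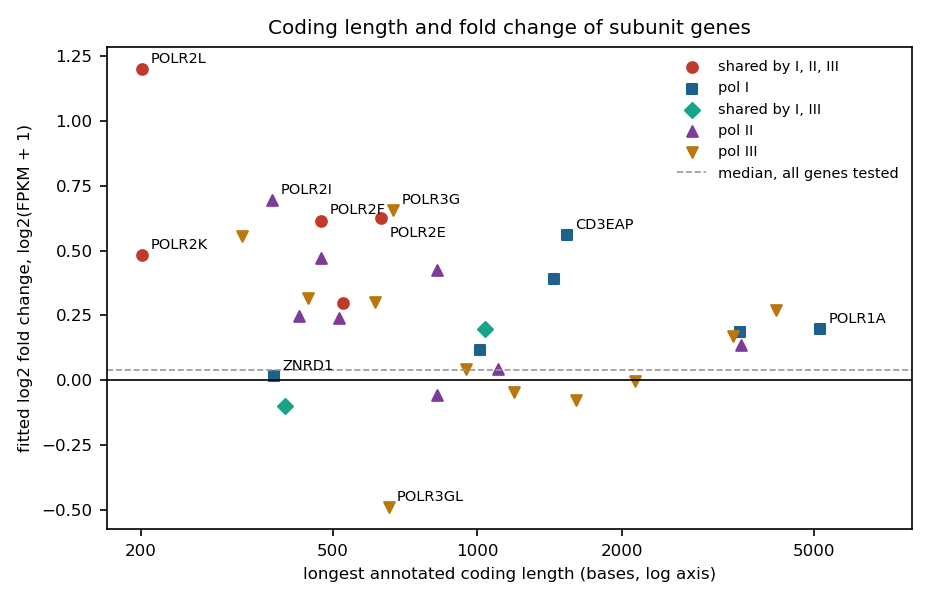
Fitted log2 fold change of 32 measured subunit genes against their longest annotated coding length (log axis), with symbols by enzyme. POLR2L and POLR2K share the shortest coding length, 201 bases, and the 5 members beyond 3000 bases lie between 0.13 and 0.27.

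Factors that work with the polymerases were higher in both libraries about as often as the subunits. Of 72 measured initiation, elongation, assembly and regulatory factors, 52 (72.2%) were higher in both, against 42.5% of all genes tested. Lower in both were 3 (4.17%), against 30.8%. Median ratios were 1.17 and 1.08. In limma 0 passed over all genes, as did 0% of all genes tested. At an unadjusted p under 0.05 there were 7, all higher, where 5.46% of all genes tested were higher and 3.73% lower. In limma-voom 0 passed, where 0.18% of genes tested were called higher and 0.659% lower. Among assembly and import factors 11 of 14 were higher in both and 1 lower. They include PFDN6, a prefoldin subunit, at 22.9, 37.99 and 34.9 FPKM, RUVBL2, an ATPase of the R2TP chaperone complex, at 91.1, 130.6 and 130.3, and PFDN2 at 76.5, 114.7 and 99.5.

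Of 17 measured initiation factors of polymerase II, 12 were higher in both and 0 lower. GTF2H3, a subunit of TFIIH, was at 14.5 and 16.97 FPKM with knockdown and had a fitted log2 fold change of 0.60 (limma adjusted p = 0.485). GTF2A2, a subunit of TFIIA, was at 10.8, 14.8 and 14.6, and TBP, the TATA-binding protein used by all 3 enzymes and held in each list of initiation factors, at 11.5, 15.1 and 15.4. Of 18 pausing and elongation factors, 14 were higher in both and 1 lower. The lower one was TCEA1, the cleavage-stimulating factor TFIIS, at 59.6, 35.7 and 50.1 FPKM, while SSRP1, a subunit of the histone chaperone FACT, was at 54.7, 71.4 and 69.8 and NELFB, of the negative elongation factor, at 49.04, 61.5 and 56.4. Of 17 polymerase III initiation factors and its repressor MAF1, 13 were higher in both and 1 lower, with BRF2 at 3.86, 6.38 and 5.66 and GTF3C5 at 31.5, 44.7 and 41.9. Of 8 polymerase I initiation factors, 4 (50%) were higher in both and 0 lower, near the 42.5% of all genes tested that were higher. Among the 4, TTF1 was at 5.36, 6.17 and 5.95 and TAF1D at 16.97, 20.7 and 17.1. In the list of mitochondrial transcription, 2 of 5 (40%) were higher in both, also near that share. The single-subunit mitochondrial polymerase POLRMT was at 37.2, 46.3 and 35.7, TFB2M at 35.6, 55.2 and 41.5, and TFAM at 18.7, 25.4 and 23.2.

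**Figure D5:**
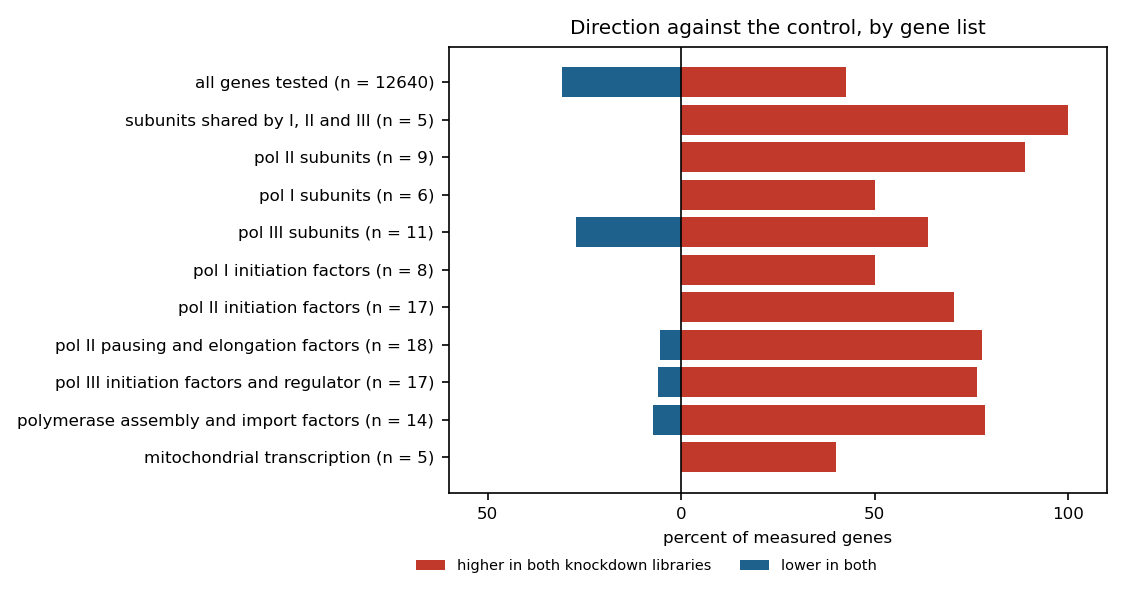
Percent of measured genes of each list that were higher (right) or lower (left) than the control in both knockdown libraries, with the number measured in brackets. The subunits shared by all enzymes reach 100% higher, and all genes tested show 42.5% higher and 30.8% lower.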

How the data were processed

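RNA from 1 control and 2 TRAF7 knockdown libraries was analysed. The authors deposited FPKM values, per the file headers. Per the submitters' processing notes, BWA, Bowtie and hg19 were used, in roles not stated. The counting tool and strand setting are not given in the sources used here. All 58735 identifiers matched GENCODE release 29 (GRCh38), whose coordinates are used. FPKM multiplied by that release's exon length was a whole multiple of 1 step in 100% of values above 0 (within 0.05), which gave the reads behind Poisson and conditional binomial intervals (95%, exact). The implied divisors equal median-of-ratios factors (1.0446, 0.9629 and 1.0061). Chi-square per gene was 14.1 between the knockdown libraries, 27.1 between knockdown 1 and the control and 13.6 between knockdown 2 and the control, so none is a duplicate. By this measure knockdown 2 was about as far from knockdown 1 as from the control.

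The main test was limma 3.58.1 (R 4.3.3) with an intensity trend on log2(FPKM + 1), applied to genes averaging 1 FPKM or more and adjusted by Benjamini-Hochberg over all genes at 0.05. Limma-voom on recovered reads (mean of at least 10) used median-of-ratios library sizes. The error rates of limma and limma-voom in these libraries were not tested. Both were tried on simulated data with 2-fold changes and 1 setting of the spread between libraries. There limma missed many changed genes and made false calls at a rate above its threshold, while limma-voom recovered nearly all changed genes with false calls at about its threshold. Members are named, except 1 that is not reported here singly but is in the counts and medians; other lists give up to 3 genes with the lowest p, and CD151 and CD34 were added for an overlap and the label. Members and lists were chosen with earlier results of these data known. Alternatives were other pseudocounts, filters, scalings, variance priors, gene types and each knockdown library alone.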

Additional observations from a re-analysis of the deposited data

How the results depend on the processing

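Fold changes of 12 members were recomputed under 13 alternatives, and 151 values kept their direction and, where there was a test, their side of the threshold, 4 came to pass it and 1 reversed. With 1 knockdown library left out no residual degrees of freedom remained, so those values have no test. POLR2L passed among protein-coding genes only (limma adjusted p = 0.0294) and in limma-voom, and over its alternatives the adjusted p ran from 1.06e-09 to 0.648. The lowest came with no filter on low values, where limma warned that most residual variances were 0 and its p-values are unreliable; POLR2E passed there too (0.0368). Members past the adjusted threshold therefore numbered 0 in the main analysis, 2 with no filter, 1 among protein-coding genes and 1 in limma-voom. POLR1A turned to −0.028 without knockdown 1. Members lower in both libraries, 3 in the main analysis, numbered 5 under quantile normalization and 8 when scaled to all assigned reads, and 5 to 7 when 1 knockdown library was left out. Members at least 1.5-fold higher numbered 1 when scaled to all assigned reads and 3 to 7 with 1 knockdown library left out (7 in knockdown 1 alone). The median log2 fold change of the subunits shared by all enzymes, 0.62, was 0.44 with a pseudocount of 5 and 0.42 under quantile normalization. That of polymerase III subunits, 0.17, was 0.081 when scaled to all assigned reads. That of the 2 subunits shared by I and III, 0.05, was 0.002 under quantile normalization and under median-of-ratios rescaling, 0.034 in limma-voom and −0.046 when scaled to all assigned reads. Over the scalings the median of all genes tested moved between −0.05 and 0.04. No paired analysis was possible because the control group holds a single library, so the groups share only 1 replicate number. With 1 control library, any feature of that library cannot be told apart from the knockdown.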

Other observations

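Genes near POLR2L and POLR3K were read from the same libraries, a choice made after the values of these members were seen. Within 100000 bases of POLR2L there were 11 measured protein-coding genes. Values are FPKM, the control first. TSPAN4, which starts next to POLR2L on the other strand, had 5.31, 6.63 and 7.04, and CHID1 at 15.2, 23.6 and 20.2. On the other side, RPLP2, a ribosomal protein gene, was at 531.6, 598.0 and 612.4, PNPLA2 at 33.7, 33.5 and 29.4, and CRACR2B at 17.9, 14.2 and 13.6. None of the 11 reached the ratios of POLR2L in either library.

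Within 100000 bases of POLR3K, which lies near the end of the short arm of chromosome 16, there were 5 measured protein-coding genes. SNRNP25, which overlaps the start of POLR3K on the opposite strand, was at 14.7, 30.1 and 25.0 FPKM, a larger ratio than that of POLR3K in both libraries. HBZ, the embryonic zeta-globin gene, was at 65.7, 109.4 and 133.0. RHBDF1, MPG and NPRL3, which lie between them, were at 1.70, 1.92 and 1.88, at 23.9, 21.2 and 23.9 and at 14.1, 14.9 and 16.1 FPKM.

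Products of polymerase III were hardly represented. Of 12 identifiers of short RNAs made by it, RN7SL2 alone was measured, at 2508, 2493 and 2912 FPKM. RN7SK, RN7SL1, RMRP and RPPH1 were listed at 0 in every library, as were RNY1, RNY3 and RNY4. Exons of the first 4 lie almost wholly within those of another annotated record, as do 89.8% of the exon bases of SUPT4H1, an elongation factor gene used by every cell and listed at 1, 0 and 0 reads.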
